A study of Homo sapiens with 19 samples.

Results

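The collagen genes were taken as all protein-coding genes whose symbol has the form COL, a number, the letter A and a number. This choice by name uses no measured value, and it found 44 genes among 44717 genes with a count in any sample, of which 18485 are protein-coding. By the kind of structure their protein enters, 11 of them are fibrillar collagens, 6 are the basement membrane chains COL4A1 to COL4A6, and 10 are FACIT, the fibril-associated collagens whose helix is interrupted. The other 17 are 5 beaded filament chains of type VI, the anchoring fibril chain COL7A1, 3 network-forming chains, 4 transmembrane collagens, the multiplexins COL15A1 and COL18A1, and COL26A1 and COL28A1, which were put in no class.

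Collagen chains are wound into helical trimers, and many trimers need the products of different genes, so that COL1A1 pairs with COL1A2, COL4A1 with COL4A2, and COL6A1 with COL6A2 and COL6A3. In skin, melanocytes rest on a basement membrane whose sheet-like network is type IV collagen, while the dermis below it is rich in fibrils of types I, III and V that fibroblasts make. FACIT collagens coat such fibrils, type VI forms beaded filaments around cells, and the transmembrane collagens, among them COL13A1, sit in the plasma membrane with most of their chain outside the cell.

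RNA-seq counts were read from 19 samples in 7 groups, in which BRG1 (the product of SMARCA4, an ATPase of the SWI/SNF chromatin remodelling complexes) or MITF (the transcription factor that defines the melanocyte lineage) had been silenced by short hairpin RNAs. In 501Mel, a human melanoma line, shBRG1 (3 samples) has the scramble control shSCR1 (3 samples) and shMITF (2 samples) has a scramble control of its own, shSCR2 (2 samples). In Hermes 3A, untransformed human melanocytes, shBRG1 and shMITF (3 samples each) share a single scramble group, shSCR (3 samples). Each group, the scramble groups included, received a lentiviral hairpin vector. Hermes 3A cells were grown with TPA, cholera toxin, stem cell factor and endothelin-1, and 501Mel cells without them, so cell line and medium cannot be told apart. Each line is a single line, and nothing in the labels says that replicates came from separate cultures, so p-values measure the spread between these samples.

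The samples held 29158502 to 78857900 counts, and collagen genes took 222 to 245 CPM, counts scaled to library size, in 501Mel shSCR1 and 1990 to 2197 CPM in Hermes 3A shSCR. SMARCA4 stood at 11.0, 12.1 and 11.5 RPKM in 501Mel shSCR1 and 2.32, 2.49 and 2.19 in shBRG1, and at 15.5, 16.3 and 14.5 in Hermes 3A shSCR and 2.88, 3.02 and 3.12 in shBRG1. MITF stood at 139 and 167 RPKM in 501Mel shSCR2 and 69.0 and 76.1 in shMITF, and at 142, 145 and 157 in Hermes 3A shSCR and 64.0, 101 and 77.3 in shMITF. The MITF level in 501Mel shSCR1 was 69.6, 83.4 and 82.7 RPKM, so the 2 scramble groups of this line differed in MITF (shSCR2 against shSCR1, log2 fold change 0.97 ± 0.09, adjusted p = 1.43e-05). Spread within a group, as a biological coefficient of variation common to all genes, was 4.58% to 5.88% in 501Mel shSCR1 and shBRG1 and in Hermes 3A shSCR and shBRG1. It was 16.5% in 501Mel shSCR2, 17.4% in 501Mel shMITF and 28.6% in Hermes 3A shMITF. All 7 melanocyte markers checked were expressed in every group, while the markers of 3 other cell types were mostly at or near 0. Of the keratinocyte markers, KRT5, KRT14, KRT1, TP63 and DSG3 had group means under 0.1 RPKM throughout and KRT10 had means from 12.9 up to 23.96. Of the endothelial markers, CDH5 and TEK were under 0.1 throughout and VWF at most 0.121. Of the 9 fibroblast markers, DCN, DPT and MFAP5 were under 0.1 throughout, PDGFRA, PDGFRB and PRRX1 at most 0.158, 0.175 and 0.102, and THY1 (0.0178 to 1.22), LUM (0.555 to 2.51) and FBLN1 (0.285 to 14.3) reached higher group means.

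Levels are given as RPKM (CPM with TMM-scaled library sizes, per kilobase of exon), which allows for gene length. The libraries passed a nuclease step that lowers the most abundant cDNAs, so levels of such genes may be understated. Ranks, ratios and shares between genes carry this limit. Changes are log2 fold changes, printed ± their SE, from edgeR's quasi-likelihood test on the counts, with p-values adjusted by the Benjamini-Hochberg method over all genes tested in that comparison. A gene is called, and said to rise or fall, where the adjusted p is under 0.05 and the log2 fold change is over 1 in size. In bulk RNA, fewer expressing cells and less RNA per cell cannot be told apart.

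Untreated by either knockdown, Hermes 3A melanocytes carried several times the collagen transcript of 501Mel cells, with higher sums of basement membrane, fibrillar and other chains and a lower sum of FACIT chains. The RPKM of the 44 genes summed to 209.8, 216 and 199 in the 3 Hermes 3A shSCR samples and to 32.0, 30.4 and 29.6 in 501Mel shSCR1. Basement membrane chains made up 84.1, 86.0 and 77.0 RPKM in Hermes 3A against 0.129, 0.116 and 0.117 in 501Mel, where type IV collagen was close to absent. Fibrillar chains summed to 70.7, 72.4 and 69.7 against 3.11, 2.61 and 2.68. The FACIT sum went the other way, at 7.17, 7.47 and 8.00 in Hermes 3A and 14.5, 14 and 13.8 in 501Mel. This reversal rested on COL9A3, at 8.83 RPKM or more in each 501Mel sample and at most 1.16 in Hermes 3A. Without COL9A3 the FACIT sum was higher in Hermes 3A. By gene, 4 of 9 FACIT chains tested were called higher and 2 lower in 501Mel. The 17 other genes summed to 47.9, 49.8 and 44.5 in Hermes 3A and 14.2, 13.6 and 12.9 in 501Mel.

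**Figure D1:**
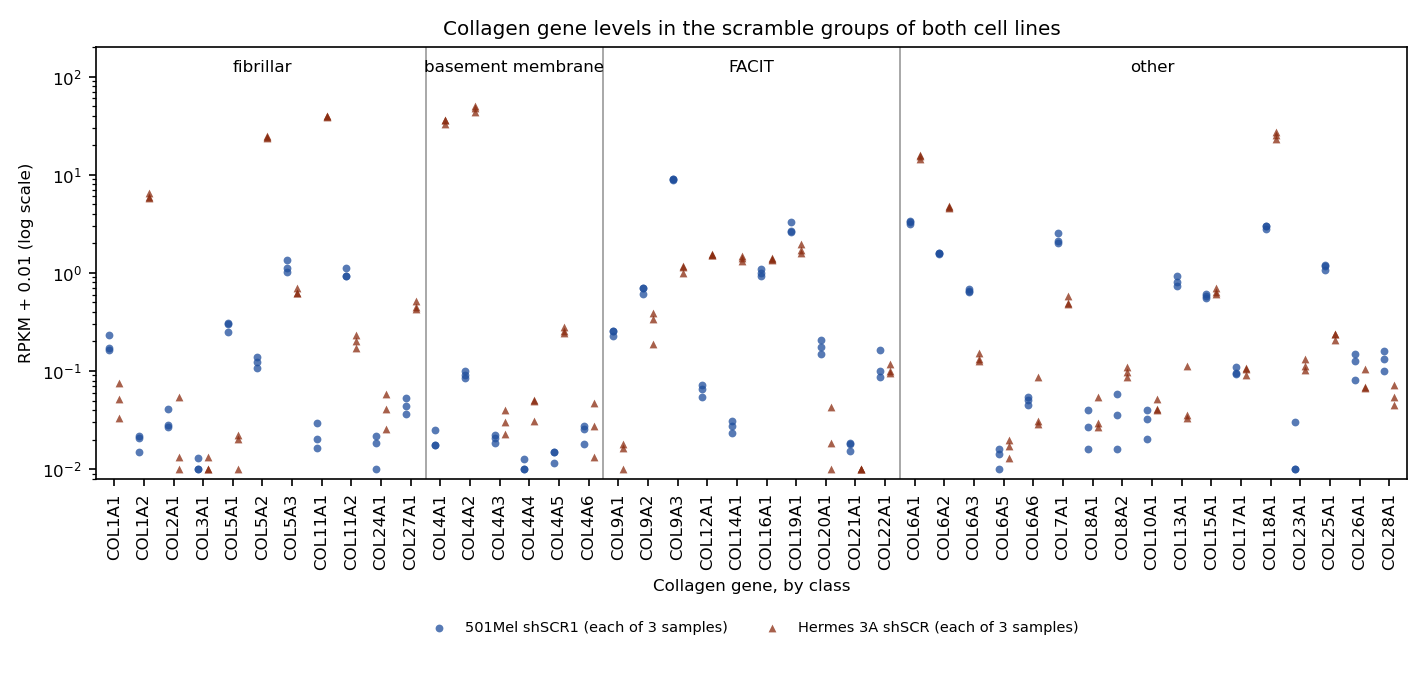
Level of each collagen gene (RPKM + 0.01, log scale) in the 3 501Mel shSCR1 samples (circles) and the 3 Hermes 3A shSCR samples (triangles), with genes ordered by class. COL4A1, COL4A2, COL5A2 and COL11A1 lie above 20 RPKM in all 3 Hermes 3A samples and below 0.2 RPKM in all 3 501Mel samples.

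In Hermes 3A shSCR the order of levels began with COL4A2 at 47.0 ± 3.16 RPKM (mean ± SD, n = 3), followed by COL11A1, a chain of thin fibrils, at 39.3 ± 0.592, COL4A1 at 35.1 ± 1.64, COL18A1, whose end fragment is endostatin, at 25.2 ± 2.06, COL5A2 at 24.1 ± 0.441 and COL6A1 at 15.4 ± 0.705. COL18A1 and COL5A2 overlapped between samples, and the other neighbours among these did not. These 6 genes held 22.6%, 18.9%, 16.8%, 12.1%, 11.6% and 7.40% of the summed collagen RPKM. In 501Mel shSCR1 the order was led by COL9A3, a chain of the cartilage FACIT type IX, at 9.0 ± 0.153 RPKM or 29.4% of the sum. It was followed by COL6A1 at 3.26 ± 0.148, COL18A1 at 2.94 ± 0.125, COL19A1, a FACIT, at 2.86 ± 0.374, COL7A1, the anchoring fibril chain, at 2.21 ± 0.28 and COL6A2 at 1.57 ± 0.0291, of which COL18A1 and COL19A1 overlapped.

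Of 34 members that passed the filter on low counts in the comparison of 501Mel shSCR1 with Hermes 3A shSCR, 12 were higher and 14 lower in 501Mel. Over all genes tested, 23.1% were higher and 18.2% lower. All 3 basement membrane chains tested were lower in 501Mel. Of these, COL4A1 and COL4A5 had at most 11 counts in any 501Mel shSCR1 sample. They passed the filter only through Hermes 3A, where they were higher, so this class count is partly set by the filter. COL4A1 had 11, 6 and 4 counts in 501Mel and 22966, 17945 and 21217 in Hermes 3A (log2 fold change -11.67 ± 0.11, adjusted p = 1.15e-29), and COL4A2 78, 92 and 50 against 40325, 32140 and 36377 (log2 fold change -9.12 ± 0.08, adjusted p = 1.18e-29). Of the fibrillar chains, COL11A1 with 9, 5 and 2 counts in 501Mel and 15619, 12184 and 15259 in Hermes 3A (log2 fold change -11.52 ± 0.11, adjusted p = 1.33e-29), COL1A2 (log2 fold change -9.21 ± 0.14, adjusted p = 5.36e-26) and COL5A2 (log2 fold change -7.71 ± 0.08, adjusted p = 1.08e-28) were lower in 501Mel. The FACIT COL14A1, found on fibrils of many tissues, was lower as well, at 0.0208, 0.0174 and 0.0132 RPKM against 1.31, 1.4 and 1.48 (log2 fold change -6.25 ± 0.18, adjusted p = 4.20e-20).

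Of the 12 genes higher in 501Mel, the 6 with the largest changes and over 100 counts were COL5A1 (log2 fold change 5.08 ± 0.33, adjusted p = 6.01e-13), COL13A1 (log2 fold change 3.99 ± 0.28, adjusted p = 1.69e-12), COL9A3 (log2 fold change 3.06 ± 0.08, adjusted p = 1.31e-21), COL25A1, a transmembrane collagen of neural tissue, COL6A3 and COL11A2. COL25A1 stood at 1.20, 1.06 and 1.18 RPKM in 501Mel and 0.228, 0.197 and 0.227 in Hermes 3A, COL6A3 at 0.642, 0.672 and 0.631 and 0.116, 0.142 and 0.123, and COL11A2 at 1.10, 0.923 and 0.919 and 0.221, 0.194 and 0.161. Their log2 fold changes were 2.43 ± 0.12 (adjusted p = 3.09e-15), 2.40 ± 0.11 (adjusted p = 3.87e-16) and 2.39 ± 0.15 (adjusted p = 3.27e-13). With shSCR2 in place of shSCR1 the fold changes of COL13A1 and COL6A3 turned to -1.16 (adjusted p = 0.209) and -1.61 (adjusted p = 0.000344). Of the 9 fibroblast markers, most were low in Hermes 3A shSCR and DPT had no count. The summed level of the 9, however, was 16.7 to 18.7 RPKM in Hermes 3A shSCR and 1.66 to 1.89 in 501Mel shSCR1, most of it FBLN1. Its part in the collagen difference was not tested.

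Partner chains were often uncoupled, and in opposite ways in the lines. In Hermes 3A, COL1A2 was at 5.84, 6.54 and 5.90 RPKM with COL1A1 at 0.0234, 0.0424 and 0.0657, a COL1A1 to COL1A2 ratio of 0.00721 ± 0.00362 (mean ± SD, n = 3), and COL5A2 was at 24.1, 24.6 and 23.7 with COL5A1 at 0.0103, 0 and 0.0124, which is 5, 0 and 6 counts. In 501Mel shSCR1, COL1A1 was at 0.224, 0.163 and 0.154 RPKM with COL1A2 at 0.0107, 0.0118 and 0.00512, and COL5A1 was at 0.241, 0.288 and 0.301 with COL5A2 at 0.0964, 0.114 and 0.130, a COL5A1 to COL5A2 ratio of 2.45 ± 0.118. Hermes 3A cells thus held the second chain of types I and V nearly without the first, and 501Mel cells held low levels of the first with less of the second. Only chains of the same type were compared, and pairing with chains of other types was not examined. COL1A1 was called higher in 501Mel, with a log2 fold change of 2.08 ± 0.29 (adjusted p = 4.60e-07), on 110, 85 and 53 counts, and the adjusted p was 0.242 with shSCR2 in its place.

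COL6A1 stood at 3.30, 3.39 and 3.10 RPKM in 501Mel shSCR1 and 15.9, 15.7 and 14.6 in Hermes 3A shSCR, COL6A2 at 1.57, 1.6 and 1.54 and 4.78, 4.72 and 4.57, and COL6A3 as given above. COL6A1 and COL6A2 were lower in 501Mel, with log2 fold changes of -2.20 ± 0.06 (adjusted p = 8.15e-21) and -1.54 ± 0.07 (adjusted p = 1.24e-15), while COL6A3 was higher in shSCR1 but, as given above, lower in shSCR2. The COL6A3 to COL6A2 ratio was 0.414 ± 0.00652 in 501Mel shSCR1, 0.0525 ± 0.0116 in 501Mel shSCR2 (n = 2) and 0.0271 ± 0.00298 in Hermes 3A shSCR, and the COL6A1 to COL6A2 ratio was 2.08 ± 0.0576 in 501Mel shSCR1 and 3.28 ± 0.0772 in Hermes 3A shSCR.

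**Figure D2:**
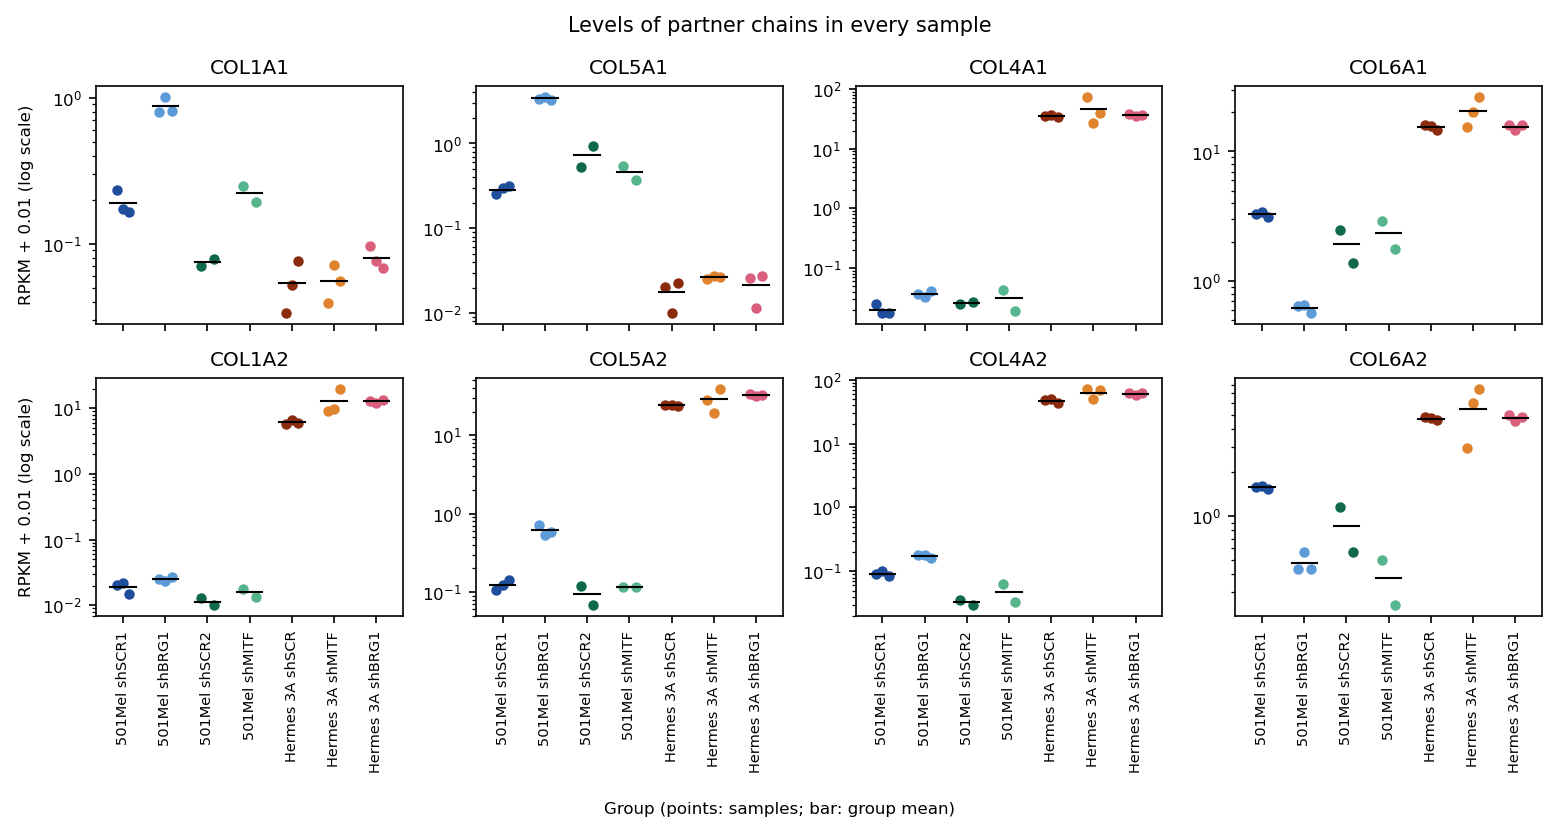
Levels (RPKM + 0.01, log scale) of partner chains in all 19 samples, by group, with points for samples and bars for group means. COL1A2 and COL5A2 are high in all 9 Hermes 3A samples where COL1A1 and COL5A1 are under 0.1 RPKM, while COL4A1 and COL4A2 are high in the same samples.

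COL4A1 and COL4A2, in contrast, were both high in Hermes 3A shSCR, with a COL4A1 to COL4A2 ratio of 0.747 ± 0.0163. These genes lie head to head on chromosome 13, with RefSeq start sites 127 bp apart (GRCh38.p14), so one stretch lies before both. It is shown in the direction of COL4A2, with matches to CCAAT and GGGCGG in either strand in capitals. COL4A5 and COL4A6 are also arranged head to head, on chromosome X, with start sites 380 bp apart, and the 250 bases before COL4A5 are shown for comparison with the same marks.
COL4A1-COL4A2 intergenic, chr13:110307158-110307283, plus strand: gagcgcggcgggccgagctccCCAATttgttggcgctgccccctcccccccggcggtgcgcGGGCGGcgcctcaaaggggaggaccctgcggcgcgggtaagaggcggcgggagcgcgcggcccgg
COL4A5, chrX:108439588-108439837, plus strand: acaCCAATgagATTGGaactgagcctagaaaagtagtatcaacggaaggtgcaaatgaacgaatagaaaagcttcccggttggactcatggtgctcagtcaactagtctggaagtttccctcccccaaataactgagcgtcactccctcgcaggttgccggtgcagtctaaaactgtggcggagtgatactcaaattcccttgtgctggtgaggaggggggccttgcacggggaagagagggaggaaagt
The stretch between COL4A1 and COL4A2 had 80.2% G and C and held 1 CCAAT match and 1 GGGCGG match, whereas the one before COL4A5 had 51.2% and held 2 CCAAT matches and no GGGCGG. The COL4A5 stretch is only part of the 380 bp between its pair's start sites. A further CCAAT match, at -118 from the COL4A6 start site, lies between them but outside that stretch.

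The 2 pairs differed in how their members were expressed. In Hermes 3A shSCR, COL4A5 stood at 0.246, 0.268 and 0.233 RPKM and COL4A6 at 0.0173, 0.00320 and 0.0372, with 127, 107 and 120 and 7, 1 and 15 counts, so COL4A5 was above its neighbour in each sample. COL4A3 and COL4A4, the third pair, with start sites 419 bp apart on chromosome 2, were both low, at 0.0211 and 0.0335 RPKM on average. In 501Mel shSCR1 the highest of the 6 type IV chains was COL4A2 at 0.0807, 0.0899 and 0.0740 RPKM.

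BRG1 silencing in 501Mel cells changed more collagen genes than any other knockdown. Fibrillar and basement membrane chains that passed the filter mostly rose from low levels, while COL6A1, COL6A2, COL6A3, COL18A1 and COL25A1 fell. Of 38 members tested, 17 rose and 10 fell, where 21.7% of all genes tested rose and 17.4% fell. Among 10 fibrillar chains tested 7 rose and 1 fell, with a median log2 fold change of 1.96, and among 4 basement membrane chains 3 rose, with a median of 1.59. The basement membrane risers COL4A1, COL4A3 and COL4A6 and the fibrillar risers COL3A1, COL11A1 and COL24A1 had at most 11 counts in any shSCR1 sample. They passed the filter only through shBRG1, where they were higher, so these class counts and medians are partly set by the filter. Of 9 FACIT chains 2 rose and 2 fell (median 0.75), and of 15 others 5 rose and 7 fell (median -0.38). The median of all genes tested was 0.05. With plain library sizes in place of TMM scaling, which moved that median to 0.40, 23 members rose and 6 fell, and COL7A1, COL11A2, COL15A1 and COL19A1 were no longer called. The 7 melanocyte markers summed to 7341 to 7989 RPKM in shSCR1 and 767 to 844 in shBRG1, and the 9 fibroblast markers to 1.66 to 1.89 and 2.75 to 3.18. Of these LUM (1.99 ± 0.13, adjusted p = 9.22e-13), PDGFRA (1.96 ± 0.34, adjusted p = 1.36e-05) and PDGFRB (1.31 ± 0.27, adjusted p = 0.000116) rose, FBLN1 fell (-1.94 ± 0.10, adjusted p = 1.78e-14), DCN and MFAP5 were not called and THY1, DPT and PRRX1 were not tested. The part of these markers in the collagen changes was not tested.

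Among the risers, COL5A1, a chain of type V, which starts fibril assembly, went from 0.241, 0.288 and 0.301 RPKM in the shSCR1 samples to 3.36, 3.54 and 3.29 in shBRG1 (log2 fold change 3.58 ± 0.08, adjusted p = 2.30e-21). Its partner COL5A2 went from 0.0964, 0.114 and 0.130 to 0.695, 0.526 and 0.574 (log2 fold change 2.37 ± 0.16, adjusted p = 1.61e-12). Both chains of type V were thus several times higher in every shBRG1 sample, though COL5A1 rose more and the COL5A1 to COL5A2 ratio was 5.76 ± 0.949. In shSCR2 this ratio was 4.79 and 16.1 in the 2 samples, a range that holds all 3 shBRG1 samples. COL1A1, the main chain of type I, went from 0.224, 0.163 and 0.154 to 0.787, 1.00 and 0.805 (log2 fold change 2.20 ± 0.13, adjusted p = 2.80e-13). Its partner COL1A2 was not tested, with 6, 7 and 2 counts in shSCR1 and 10, 9 and 10 in shBRG1. COL24A1, a minor fibrillar chain, had 4, 6 and 0 counts in shSCR1 and 158, 114 and 115 in shBRG1, or 0.273, 0.200 and 0.228 RPKM (log2 fold change 4.86 ± 0.33, adjusted p = 2.04e-12).

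COL20A1, a FACIT, stood at 0.196, 0.165 and 0.138 RPKM in shSCR1 and 3.31, 3.63 and 3.15 in shBRG1 (log2 fold change 4.26 ± 0.09, adjusted p = 2.25e-21). COL13A1, the transmembrane collagen, stood at 0.919, 0.717 and 0.795 and 4.63, 5.23 and 4.69 (log2 fold change 2.53 ± 0.08, adjusted p = 3.81e-18). With these changes COL13A1, COL5A1 and COL20A1 reached 4.85, 3.39 and 3.36 RPKM on average, against 15.7 for COL9A3. The 11 other risers were COL3A1, COL4A1, COL4A3, COL4A6, COL5A3, COL6A5, COL8A1, COL8A2, COL11A1, COL16A1 and COL28A1. The call of COL8A1 was lost without shSCR1 replicate 3, at 0.80 (adjusted p = 0.0585). That of COL8A2 was lost without shSCR1 replicate 1 or 3 (adjusted p = 0.0844 and 0.141) and without shBRG1 replicate 1, 2 or 3 (adjusted p = 0.0662, 0.0526 and 0.0513). The basement membrane chains rose from very low counts, and COL4A1 went from 11, 6 and 4 counts to 24, 20 and 24 (log2 fold change 1.32 ± 0.36, adjusted p = 0.00201), and COL4A2 from 78, 92 and 50 to 202, 197 and 156 (log2 fold change 0.97 ± 0.13, adjusted p = 5.79e-07), just short of the threshold on size.

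COL6A1, COL6A2 and COL6A3 all fell in the 501Mel shBRG1 samples. COL6A3 went from 0.642, 0.672 and 0.631 RPKM to 0.0413, 0.0333 and 0.0368 (log2 fold change -4.17 ± 0.11, adjusted p = 5.70e-20), COL6A1 from 3.30, 3.39 and 3.10 to 0.638, 0.652 and 0.559 (log2 fold change -2.45 ± 0.08, adjusted p = 4.26e-18) and COL6A2 from 1.57, 1.6 and 1.54 to 0.424, 0.557 and 0.423 (log2 fold change -1.79 ± 0.11, adjusted p = 2.27e-13). COL6A3 fell the furthest, and its ratio to COL6A2 went from 0.414 ± 0.00652 to 0.0814 ± 0.0194 (mean ± SD, n = 3 each). These COL6A3 levels overlapped those of the other scramble group of this line, shSCR2 (0.0509 and 0.0338 RPKM), and against all 5 scramble samples the COL6A3 log2 fold change was -3.45 (adjusted p = 0.0269). COL18A1, the basement membrane proteoglycan core, went from 3.00, 3.02 and 2.79 to 0.471, 0.511 and 0.404 (log2 fold change -2.72 ± 0.08, adjusted p = 3.40e-19). These COL18A1 levels overlapped shSCR2 (0.817 and 0.505 RPKM). Against all 5 scramble samples the COL18A1 log2 fold change was -2.14 (adjusted p = 0.0197). Exons of SLC19A1 on the opposite strand cover 16.4% of the COL18A1 exon bases, and whether the counting used strand is not given in the sources used here. COL25A1 went from 1.20, 1.06 and 1.18 to 0.314, 0.245 and 0.363 (log2 fold change -1.95 ± 0.11, adjusted p = 1.13e-13), and COL19A1 from 3.29, 2.68 and 2.61 to 1.43, 1.10 and 1.35 (log2 fold change -1.20 ± 0.10, adjusted p = 9.36e-10). The remaining fallers were COL7A1 (log2 fold change -1.12 ± 0.09, adjusted p = 2.10e-10), COL11A2 (log2 fold change -1.09 ± 0.11, adjusted p = 2.29e-09), COL15A1 (log2 fold change -1.08 ± 0.13, adjusted p = 5.10e-08) and COL22A1 (log2 fold change -2.62 ± 0.35, adjusted p = 3.54e-07) on 35, 32 and 42 counts in shSCR1. Against all 5 scramble samples COL7A1 was -0.41 (adjusted p = 0.705) and COL15A1 -0.64 (adjusted p = 0.351), and with all 501Mel groups in one fit the adjusted p was 0.0678 for COL15A1 and 0.0523 for COL11A2. COL7A1 was lower in shSCR2 (0.223 and 0.151 RPKM) than in shBRG1 (1.04, 1.20 and 0.925). COL6A2 and COL22A1 in shBRG1 also overlapped shSCR2. Against all 5 scramble samples they were -1.46 (adjusted p = 0.00942) and -2.14 (adjusted p = 0.0253).

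MITF silencing in 501Mel cells called few collagen genes, all of them higher. Of 30 members tested 5 rose and none fell, where 5.59% of all genes tested rose and 3.4% fell. The risers were the FACIT chains COL9A3, COL16A1 and COL22A1, the transmembrane COL13A1 and the fibrillar COL1A1, and no basement membrane chain was called. At an unadjusted p under 0.05, 4 members were lower, and DESeq2 called 2 of the 30 lower. The class medians were 0.38 for 7 fibrillar, 0.58 for 2 basement membrane, 0.16 for 9 FACIT and -0.16 for 12 other genes, beside 0.01 for all genes.

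COL9A3 stood at 20.4 and 16.3 RPKM in the 2 shSCR2 samples and 87.6 and 40.2 in shMITF (log2 fold change 1.8 ± 0.38, adjusted p = 0.0311), and it was the most abundant collagen transcript in both shMITF samples. COL13A1 stood at 0.0371 and 0.0141 and 0.376 and 1.03, from 7 and 6 counts to 100 and 313 (log2 fold change 4.97 ± 0.72, adjusted p = 0.00394). COL16A1, a FACIT found near basement membranes, stood at 0.101 and 0.0745 and 0.339 and 0.510 (log2 fold change 2.31 ± 0.39, adjusted p = 0.00435), and COL22A1, a FACIT of tissue junctions, at 0.0359 and 0.0229 and 0.223 and 0.463 (log2 fold change 3.63 ± 0.53, adjusted p = 0.00248). All 4 were higher in both shMITF samples than in both shSCR2 samples. The COL9A3 call was lost without either shSCR2 sample (adjusted p = 0.447 without replicate 1 and 0.409 without replicate 2).

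COL6A1, COL6A2 and COL6A3 did not pass the test in this comparison. COL6A3 had 32 and 48 counts in shSCR2 and 12 and 18 in shMITF (log2 fold change -1.38 ± 0.45, adjusted p = 0.0609), COL6A2 stood at 1.15 and 0.556 RPKM and 0.493 and 0.234 (log2 fold change -1.23 ± 0.48, adjusted p = 0.113), and COL6A1 at 2.47 and 1.38 and 2.91 and 1.76 (log2 fold change 0.28 ± 0.36, adjusted p = 0.632). With all 501Mel groups in one fit, COL6A2 and COL6A3 were called lower, at -1.22 (adjusted p = 0.0264) and -1.35 (adjusted p = 0.00227), and 4 members were lower in all. The same count of 4 was reached without shMITF replicate 1, and it was 1 without shMITF replicate 2 or shSCR2 replicate 2. Of the other partner chains, COL1A1 went from 19 and 49 counts to 106 and 93 (log2 fold change 1.71 ± 0.36, adjusted p = 0.0117), COL1A2 was not tested with 1 and 0 and 4 and 2 counts, and COL4A1 and COL4A2 gave 0.38 ± 0.62 (adjusted p = 0.709) and 0.77 ± 0.50 (adjusted p = 0.305) on under 50 counts per sample.

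The 2 scramble groups of 501Mel also differed in collagen genes, among them several just described. Between shSCR2 and shSCR1, 5 of 29 members tested were higher in shSCR2 and 14 lower, where 12.3% of all genes tested were higher and 20.7% lower. COL13A1 was 0.919, 0.717 and 0.795 RPKM in shSCR1 and 0.0371 and 0.0141 in shSCR2 (log2 fold change -5.21 ± 0.35, adjusted p = 2.73e-06), COL6A3 0.642, 0.672 and 0.631 and 0.0509 and 0.0338 (log2 fold change -4.01 ± 0.20, adjusted p = 7.54e-07), COL7A1 2.52, 2.12 and 1.98 and 0.223 and 0.151 (log2 fold change -3.61 ± 0.21, adjusted p = 1.94e-06) and COL16A1 1.10, 0.990 and 0.918 and 0.101 and 0.0745 (log2 fold change -3.56 ± 0.21, adjusted p = 1.33e-06). COL18A1 and COL25A1 were also lower in shSCR2, with log2 fold changes of -2.18 ± 0.21 (adjusted p = 5.57e-05) and -1.10 ± 0.25 (adjusted p = 0.00507). COL27A1, COL12A1, COL9A1, COL5A1 and COL9A3 were higher in shSCR2, with log2 fold changes of 2.89 ± 0.42 (adjusted p = 0.000459), 2.88 ± 0.24 (adjusted p = 7.28e-06), 2.44 ± 0.57 (adjusted p = 0.00969), 1.4 ± 0.21 (adjusted p = 0.000343) and 1.04 ± 0.12 (adjusted p = 6.59e-05). The calls of COL25A1 and COL5A1 rested on shSCR2 replicate 2 and that of COL9A3 on replicate 1, without which they were -0.66 (adjusted p = 0.000354), 0.98 (adjusted p = 4.67e-05) and 0.85 (adjusted p = 2.09e-11), under the threshold on size.

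COL13A1 in shMITF (0.376 and 1.03 RPKM) overlapped shSCR1, and COL16A1 in shMITF (0.339 and 0.510) was below all 3 shSCR1 samples. Against all 5 scramble samples of this line, the COL13A1 log2 fold change was 0.51 (adjusted p = 0.844) and that of COL16A1 was -0.58 (adjusted p = 0.776), and 1 member, COL9A3, rose. COL9A3 was higher in both shMITF samples than in all 5 scramble samples, with a log2 fold change against the pool of 2.31 (adjusted p = 0.0287). The cause of the difference between scramble groups was not tested.

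In Hermes 3A cells BRG1 silencing raised a few collagen genes, while the most abundant ones, COL4A2, COL4A1, COL11A1, COL18A1 and COL5A2, were not called. Of 33 members tested 6 rose and 2 fell, where 5.78% of all genes tested rose and 3.47% fell. COL1A2 and COL5A3 rose among 8 fibrillar chains (median 0.54), COL9A2 among 7 FACIT (median 0.77), and COL23A1, COL8A1 and COL13A1 among 14 others (median 0.01), of which COL6A3 and COL17A1 fell. None of 4 basement membrane chains was called (median 0.19, with 0.01 for all genes). The 7 melanocyte markers summed to 16899 to 17284 RPKM in shSCR, 8268 to 8595 in shBRG1 and 7135 to 9178 in shMITF, and the 9 fibroblast markers, most of it FBLN1, to 16.7 to 18.7, 13.5 to 15.0 and 8.51 to 15.8. Of the fibroblast markers PDGFRA and PDGFRB rose, at 2.04 ± 0.29 (adjusted p = 8.01e-07) and 1.11 ± 0.37 (adjusted p = 0.0118) with shBRG1 and 2.14 ± 0.42 (adjusted p = 0.0120) and 1.90 ± 0.50 (adjusted p = 0.0347) with shMITF, from group means under 0.05 RPKM to at most 0.175, and none was called lower. The part of these markers in the collagen changes of Hermes 3A was not tested.

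COL1A2 went from 5.84, 6.54 and 5.90 RPKM in shSCR to 13.0, 12.2 and 13.2 in shBRG1 (log2 fold change 1.06 ± 0.05, adjusted p = 4.42e-17), while its partner COL1A1 was at 0.0856, 0.0654 and 0.0586 RPKM (log2 fold change 0.65 ± 0.36, adjusted p = 0.125). COL5A3, the third chain of type V, went from 0.612, 0.687 and 0.608 to 1.72, 1.71 and 1.77 (log2 fold change 1.43 ± 0.10, adjusted p = 4.15e-13), and COL5A2 from 24.1, 24.6 and 23.7 to 34.0, 31.8 and 32.7 (log2 fold change 0.43 ± 0.04, adjusted p = 2.64e-10), past the test but not the size threshold. COL23A1, a transmembrane collagen, went from 20, 13 and 15 counts to 263, 283 and 253, or from 0.122, 0.103 and 0.0918 to 1.54, 1.34 and 1.61 RPKM (log2 fold change 3.80 ± 0.19, adjusted p = 5.82e-16). This was the largest change of any collagen gene in Hermes 3A shBRG1. COL9A2, a type IX chain, went from 0.180, 0.331 and 0.383 to 0.661, 0.715 and 0.761 RPKM (log2 fold change 1.25 ± 0.21, adjusted p = 6.81e-06). Without shSCR replicate 1, its log2 fold change was 0.97 (adjusted p = 0.000192), under the size threshold.

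COL4A1 was 37.4, 34.8 and 36.3 RPKM in shBRG1 (log2 fold change 0.03 ± 0.04, adjusted p = 0.582) and COL4A2 62.0, 58.2 and 60.9 (log2 fold change 0.34 ± 0.05, adjusted p = 4.08e-07), with the shSCR values 35.8, 36.2 and 33.2 and 48.0, 49.5 and 43.5. The groups overlapped for COL4A1 and not for COL4A2, and the COL4A1 to COL4A2 ratio was 0.60 ± 0.00269 in shBRG1 against 0.747 ± 0.0163 in shSCR. COL6A1 (16, 14.5 and 15.9 RPKM, log2 fold change -0.01 ± 0.05, adjusted p = 0.871) and COL6A2 (4.98, 4.48 and 4.79 RPKM, log2 fold change 0.00 ± 0.06, adjusted p = 0.990) overlapped the shSCR samples. COL6A3 fell from 99, 94 and 105 counts to 47, 64 and 49 (log2 fold change -1.17 ± 0.19, adjusted p = 6.16e-06), and COL17A1, a hemidesmosome collagen, from 29, 23 and 25 to 8, 6 and 8 (log2 fold change -2.04 ± 0.42, adjusted p = 0.000118). With all Hermes 3A groups in one fit, COL17A1 was -2.03 (adjusted p = 0.0528) and COL9A2 1.24 (adjusted p = 0.0937), neither past the test.

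MITF silencing in Hermes 3A cells raised 2 FACIT, 1 fibrillar and 2 other collagen genes and lowered 3, with a larger spread between replicates than BRG1 silencing. Of 32 members tested 5 rose (COL9A3, COL8A1, COL13A1, COL12A1 and COL1A2) and 3 fell (COL6A3, COL25A1 and COL4A5), where 3.35% of all genes tested rose and 4.04% fell. The class medians were 0.43 for 8 fibrillar, 0.43 for 4 basement membrane, 0.70 for 7 FACIT and 0.04 for 13 other genes, beside 0.05 for all genes. Without any 1 of the 3 shSCR samples, 2 members rose and 1 fell, and with plain library sizes in place of TMM scaling 5 rose and 1 fell. The 2 Hermes 3A comparisons share their shSCR samples, so they are not independent of each other.

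COL9A3 was 1.16, 0.995 and 1.15 RPKM in shSCR and 4.02, 8.08 and 30.9 in shMITF (log2 fold change 3.71 ± 0.68, adjusted p = 0.00895), above shSCR in each sample but over a wide range. COL12A1, a FACIT of dense connective tissue, was 1.51, 1.54 and 1.51 and 3.11, 3.35 and 3.25 (log2 fold change 1.11 ± 0.12, adjusted p = 0.00112), the tightest of these changes. COL1A2 was 5.84, 6.54 and 5.90 and 9.11, 9.87 and 19.7 (log2 fold change 1.10 ± 0.27, adjusted p = 0.0272), again with little COL1A1 (0.0292, 0.0617 and 0.0457 RPKM, log2 fold change 0.07 ± 0.51, adjusted p = 0.940). COL4A5 was 0.246, 0.268 and 0.233 and 0.135, 0.102 and 0.123 (log2 fold change -1.03 ± 0.25, adjusted p = 0.0282). Of the 8 calls, those of COL12A1 and COL6A3 held in every fit with 1 sample left out. Without shSCR replicate 1, 2 or 3, the adjusted p was 0.116, 0.0546 and 0.0619 for COL9A3, 0.0956, 0.0984 and 0.112 for COL1A2, and 0.129, 0.129 and 0.112 for COL4A5. With any 1 shSCR sample left out, the genes called among all tested fell from 1220 to between 590 and 677, and over the 6 fits the log2 fold change was 2.49 to 4.14 for COL9A3, 0.67 to 1.28 for COL1A2 and -1.13 to -0.93 for COL4A5. COL1A2 without shMITF replicate 3 was 0.67 (adjusted p = 0.0151) and COL4A5 without shMITF replicate 2 was -0.93 (adjusted p = 0.0313).

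Of the low-count genes, COL8A1 went from 8, 14 and 7 counts to 45, 47 and 46 (log2 fold change 2.6 ± 0.45, adjusted p = 0.00715), COL25A1 from 87, 58 and 86 to 34, 30 and 15 (log2 fold change -1.16 ± 0.32, adjusted p = 0.0412) and COL6A3 from 99, 94 and 105 to 16, 24 and 17 (log2 fold change -1.98 ± 0.32, adjusted p = 0.00534). The COL8A1 call was lost without shSCR replicate 3 (adjusted p = 0.0520) and the COL25A1 call without shSCR replicate 1, 2 or 3 or shMITF replicate 3 (adjusted p = 0.17, 0.122, 0.166 and 0.0635). The abundant pairs were not called. COL4A1 stood at 73.5, 26.4 and 39.3 RPKM (log2 fold change 0.43 ± 0.32, adjusted p = 0.401), COL4A2 at 71.4, 49.3 and 68.0 (log2 fold change 0.44 ± 0.18, adjusted p = 0.123), COL6A1 at 15.3, 20.1 and 26.4 (log2 fold change 0.44 ± 0.18, adjusted p = 0.139) and COL6A2 at 2.93, 5.99 and 7.49 (log2 fold change 0.24 ± 0.29, adjusted p = 0.612). In these 4 the 3 shMITF samples ranged on both sides of shSCR or overlapped it.

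**Figure D3:**
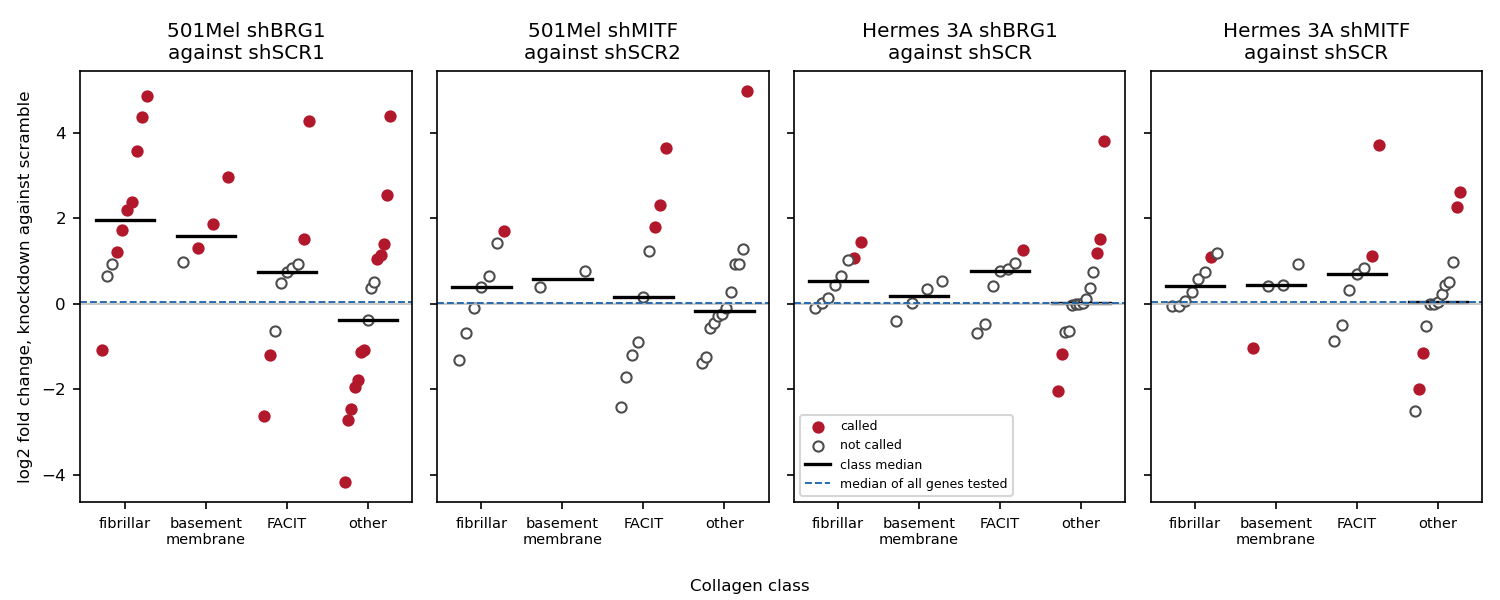
Log2 fold change of each tested collagen gene in the 4 knockdown comparisons, by class, with filled points for called genes, open points for the others, a black bar for the class median and a dashed line for the median of all genes tested. In 501Mel shBRG1 the fibrillar and basement membrane medians lie at 1.96 and 1.59, and the other classes and comparisons have medians between -0.38 and 0.77. Some of the fibrillar and basement membrane chains in the 501Mel shBRG1 panel passed the filter only through shBRG1.

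Across the 4 knockdown comparisons, of which the 2 in Hermes 3A share controls, COL13A1 was the 1 member called in the same direction in each, and it is described here after its values were seen. In 501Mel it went from 0.810 to 4.85 RPKM on average with shBRG1 and from 0.0256 to 0.703 with shMITF. The call with shMITF depended on the scramble group. COL13A1 in shMITF overlapped shSCR1, and against all 5 scramble samples its log2 fold change was 0.51 (adjusted p = 0.844). In Hermes 3A it had 6, 5 and 26 counts in shSCR, 36, 38 and 26 in shBRG1 (log2 fold change 1.18 ± 0.42, adjusted p = 0.0169) and 60, 55 and 20 in shMITF (log2 fold change 2.25 ± 0.62, adjusted p = 0.0407). The levels were 0.0234, 0.0253 and 0.102 RPKM in shSCR, 0.135, 0.115 and 0.106 in shBRG1 and 0.292, 0.298 and 0.127 in shMITF, so the groups did not overlap but shSCR replicate 3 lay close under the lowest shBRG1 sample. With shBRG1 the adjusted p was 0.130 without shSCR replicate 1, 0.0502 without shSCR replicate 2, 0.0671 without shBRG1 replicate 1 and 0.153 with all Hermes 3A groups in one fit. With shMITF it was 0.149 and 0.157 without shSCR replicate 1 or 2, and 0.0625 and 0.0763 without shMITF replicate 1 or 2.

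COL6A3, which was also singled out after its values were seen, fell in 3 of the 4 comparisons and missed the test in 501Mel shMITF. Its mean level was 0.648 RPKM in 501Mel shSCR1 and 0.0371 in shBRG1, 0.0423 in shSCR2 and 0.0156 in shMITF, and 0.127 in Hermes 3A shSCR, 0.0570 in shBRG1 and 0.0316 in shMITF. The Hermes 3A and shSCR2 levels rest on about 100 counts or fewer per sample.

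**Figure D4:**
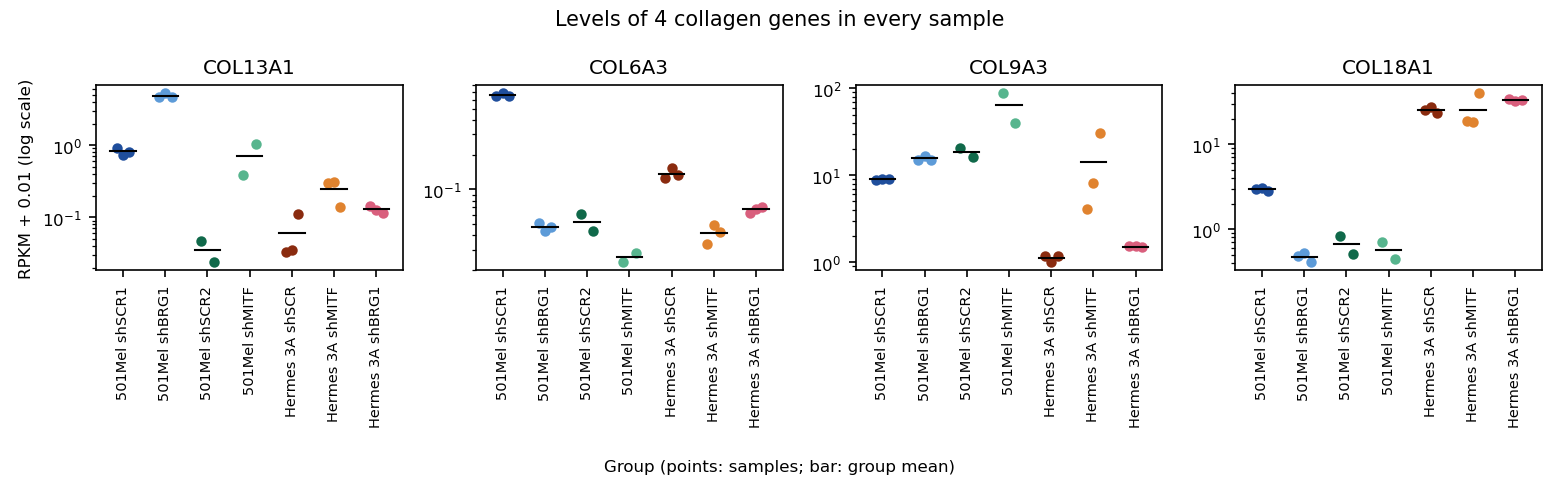
Levels (RPKM + 0.01, log scale) of COL13A1, COL6A3, COL9A3 and COL18A1 in all 19 samples by group, with points for samples and bars for group means. COL13A1 is lower in both shSCR2 samples than in the 3 shSCR1 samples, and COL18A1 is above 18 RPKM in all 9 Hermes 3A samples and below 3.1 in all 10 501Mel samples.

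Whether BRG1 silencing acted differently on collagen genes in the lines was tested as a difference of effects. Of 42 members tested, 17 had a higher effect in 501Mel than in Hermes 3A and 12 a lower one, where 12.0% and 14.9% of all genes tested did. Those higher were 5 fibrillar, 4 basement membrane, 2 FACIT and 6 other genes, and those lower 1 fibrillar, 3 FACIT and 8 other genes. COL18A1 fell in 501Mel and was 25.1, 27.3 and 23.2 RPKM in Hermes 3A shSCR and 34.1, 32.0 and 33.5 in shBRG1, a difference of effects of -3.13 ± 0.09 (adjusted p = 2.78e-27). The 501Mel side of this test used shSCR1 only, and COL18A1 in 501Mel shBRG1 overlapped shSCR2, as given above. COL6A1 and COL6A2, with Hermes 3A fold changes near 0, differed by -2.47 ± 0.09 (adjusted p = 1.06e-23) and -1.82 ± 0.12 (adjusted p = 6.37e-16). COL16A1 rose in 501Mel from 1.10, 0.990 and 0.918 to 2.80, 3.20 and 2.89 RPKM and went from 1.36, 1.37 and 1.39 to 0.788, 0.934 and 0.881 in Hermes 3A (difference 2.15 ± 0.12, adjusted p = 1.39e-18). COL19A1 fell in 501Mel and went from 1.57, 1.71 and 1.97 to 3.46, 3.49 and 3.35 in Hermes 3A (difference -2.18 ± 0.13, adjusted p = 6.98e-16). COL5A3 rose in both lines, and its difference of -0.27 ± 0.15 (adjusted p = 0.124) did not pass.

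**Figure D5:**
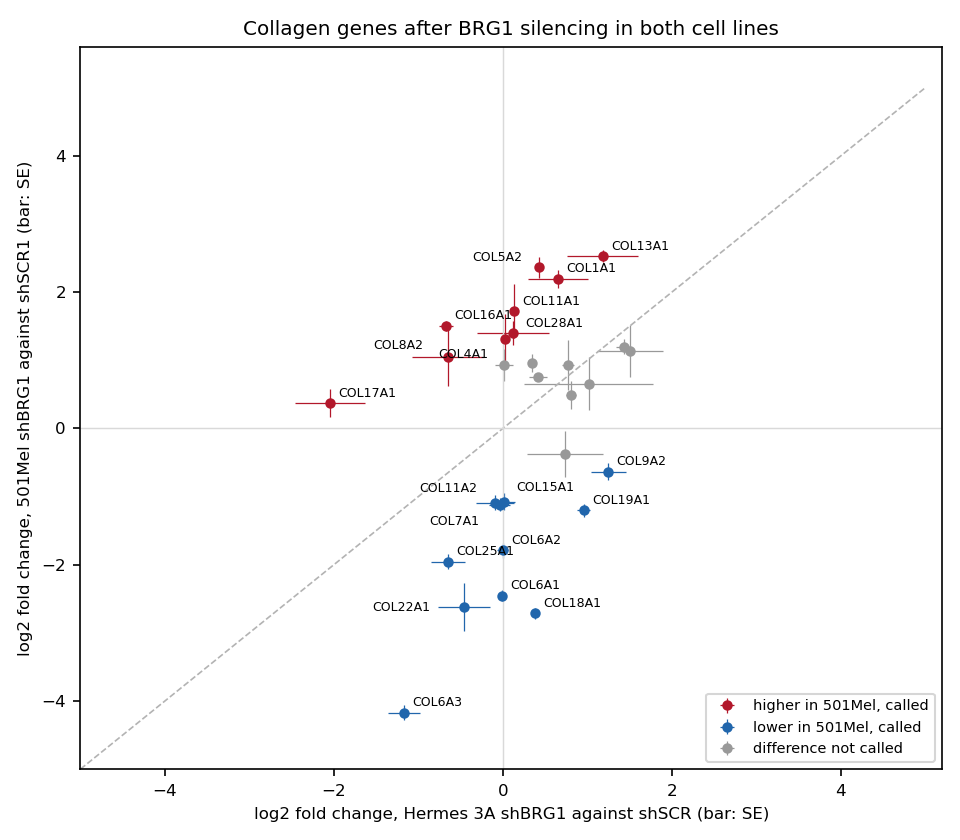
Change on the log2 scale after BRG1 silencing in Hermes 3A (horizontal) and 501Mel (vertical) of the 29 collagen genes tested in both lines, with SE bars. Red points (9) have a higher and blue points (11) a lower effect in 501Mel by the test of the difference, and grey points (9) were not called. Points near the vertical axis, such as COL6A1 and COL6A2, changed in 501Mel while the Hermes 3A fold change was near 0.

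For MITF silencing the same test called no member higher and 1 lower in 501Mel, where 2.0% and 0.643% of all genes tested were called. At an unadjusted p under 0.05, 5 members were higher and 3 lower, and DESeq2 called 2 in each direction. The member called was COL12A1, at 0.310 and 0.475 RPKM in 501Mel shSCR2 and 0.137 and 0.0124 in shMITF, with a rise in Hermes 3A as given above (difference -3.55 ± 0.75, adjusted p = 0.0331). In 501Mel shSCR1 COL12A1 was at 0.0624, 0.0438 and 0.0549 RPKM, between the 2 shMITF samples. It was lost without either shSCR2 sample or any Hermes 3A shSCR sample, with adjusted p from 0.0837 to 0.127. Without Hermes 3A shMITF replicate 1 the test called 1 member higher, and without replicate 3 it called 3.

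Other genes of the collagen pathway were followed as a list of 53, from chain modification to breakdown. With shBRG1 in 501Mel, 9 of 48 tested rose and 14 fell, beside 21.7% and 17.4% of all genes. The 4 largest log2 fold changes were falls in ADAMTS14, which trims procollagen ends (-5.72 ± 0.46, adjusted p = 6.35e-11), LOXL1, a cross-linking oxidase (-4.13 ± 0.40, adjusted p = 1.89e-09), ITGA11, a collagen-binding integrin chain (-3.67 ± 0.25, adjusted p = 2.31e-12), and MMP2, a gelatinase (-3.11 ± 0.09, adjusted p = 2.51e-19). MMP2 went from 6.25 to 7.92 RPKM in shSCR1 to 0.771 to 0.976 in shBRG1. With shMITF in 501Mel, 4 of 44 rose and 1 fell, beside 5.59% and 3.4% of all genes, led by the collagen receptors ITGA10 (3.21 ± 0.47, adjusted p = 0.00291), ITGA1 (3.06 ± 0.50, adjusted p = 0.0119) and DDR1 (2.33 ± 0.48, adjusted p = 0.0107) and with a fall of the collagenase MMP8 (-2.10 ± 0.53, adjusted p = 0.0233).

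In Hermes 3A, 5 of 46 list genes rose and 2 fell with shBRG1, beside 5.78% and 3.47% of all genes, and 5 of 46 rose and 3 fell with shMITF, beside 3.35% and 4.04%. DDR1, a receptor kinase for fibrillar collagen, rose in both, with log2 fold changes of 1.83 ± 0.05 (adjusted p = 2.07e-21) and 1.99 ± 0.31 (adjusted p = 0.00469), from 7.41 to 8.60 RPKM in shSCR to 27.7 to 31.4 and 21.2 to 50.5. P4HA3, a prolyl hydroxylase subunit (1.52 ± 0.19, adjusted p = 1.13e-07), and MMP1, the interstitial collagenase (1.34 ± 0.53, adjusted p = 0.0311), rose and the cross-linking enzyme LOX fell (-1.16 ± 0.12, adjusted p = 4.32e-09) with shBRG1. With shMITF the protease CTSK (-1.99 ± 0.26, adjusted p = 0.00258) and the procollagen protease ADAMTS2 (-1.94 ± 0.24, adjusted p = 0.00207) fell and CREB3L1, a membrane-bound transcription factor, rose (1.93 ± 0.42, adjusted p = 0.0176). Between the lines, 9 of 49 list genes were higher and 19 lower in 501Mel shSCR1, beside 23.1% and 18.2% of all genes, with CTSK, FAP, MMP8 and DDR1 at log2 fold changes of -8.28 ± 0.09 (adjusted p = 1.12e-28), -6.34 ± 0.08 (adjusted p = 6.91e-28), -6.02 ± 0.18 (adjusted p = 3.96e-20) and -5.97 ± 0.11 (adjusted p = 1.34e-24). Of 50 tested for a difference in the shBRG1 effect, 9 were higher and 17 lower in 501Mel, beside 12.0% and 14.9% of all genes, with ADAMTS14, LOXL1, MMP2 and P4HA3 at -6.06 ± 0.79 (adjusted p = 1.96e-08), -4.60 ± 0.40 (adjusted p = 9.97e-13), -3.75 ± 0.12 (adjusted p = 1.08e-25) and -3.69 ± 0.29 (adjusted p = 4.91e-14). Of 48 tested for the shMITF effect, 1 was higher and 1 lower, beside 2.0% and 0.643% of all genes. CTSK was higher (2.72 ± 0.51, adjusted p = 0.0168) and MMP2 lower (-1.51 ± 0.33, adjusted p = 0.0303). Between the scramble groups of 501Mel, 2 of 48 were higher and 14 lower in shSCR2, beside 12.3% and 20.7% of all genes, with MMP1, ITGA11 and ADAMTS2 among the lower at log2 fold changes of -6.63 ± 0.48 (adjusted p = 3.57e-06), -3.12 ± 0.46 (adjusted p = 0.000335) and -2.88 ± 0.51 (adjusted p = 0.000799) and MMP8 higher at 2.94 ± 0.35 (adjusted p = 6.55e-05).

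Promoter windows of 300 bases around RefSeq start sites (250 before and 50 after, GRCh38.p14) were found for 32 of the 44 genes, 44 windows in all. The genes with no window here were COL1A1, COL1A2, COL2A1, COL3A1, COL5A2, COL6A1, COL6A5, COL8A1, COL9A3, COL14A1, COL20A1 and COL22A1. The E-box CACGTG, which MITF binds, was in none of the 44 windows and in 7.26% of the 35116 windows of all genes. CATGTG, the core of the M-box that MITF also binds, was in 2 collagen windows, of COL10A1 and COL24A1, and in 11.1% of all. ACAAAG, a motif of SOX factors, was in 7 (16.1% of all), TATAAA in 8 (11.5%), GGGCGG in 24 (45.0%) and CCAAT in 14 (34.6%), each read on both strands. Of these motifs none contains another, and windows of neighbouring start sites can overlap.

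The remaining members were low. COL10A1, of growth plate cartilage, and COL21A1, a FACIT, passed the filter in none of the 8 comparisons, with group means of at most 0.0453 and 0.0171 RPKM, and COL21A1 was not listed for Hermes 3A shMITF. The highest group means of COL2A1, the cartilage fibril chain, COL3A1, the partner of type I in soft tissue, COL26A1 and COL6A6 were 0.0372, 0.0295, 0.118 and 0.0610 RPKM. COL27A1, a fibrillar chain of cartilage, and COL14A1 were in Hermes 3A shSCR at 0.417, 0.436 and 0.503 and 1.31, 1.4 and 1.48 RPKM and were called in no knockdown comparison. COL15A1, the second multiplexin, stood at 0.573, 0.592 and 0.541 RPKM in 501Mel shSCR1 and 0.694, 0.626 and 0.596 in Hermes 3A shSCR. The groups were apart by a small gap and passed neither the test nor the size threshold (log2 fold change -0.13 ± 0.12, adjusted p = 0.356).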

How the data were processed

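RNA-seq was made from total RNA after removal of ribosomal RNA and normalization with a duplex-specific nuclease, a step that lowers the most abundant cDNAs, so levels of such genes may be understated. The authors deposited raw counts per Ensembl gene for each of the 19 samples. Per the submitters' processing notes the tools were CASAVA 1.8, TopHat 1.4.1 and Bowtie 0.12.7 with the build hg19, while the counter, its use of strand and the annotation release are not given in the sources used here.

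Groups came from the labels. Counts were tested with edgeR 4.0.16 in R 4.3.3 (TMM, filterByExpr, robust glmQLFit, glmQLFTest), fitting the groups compared, with Benjamini-Hochberg adjustment over all genes tested. Differences of effects between lines were interaction terms over the 4 groups concerned. SEs were obtained as |log2 fold change| over √F. RPKM used TMM over all 19 samples and union exon lengths of GENCODE 29, matched by Ensembl ID, and Python 3.11.15 with pandas 2.3.3, numpy 2.4.6 and matplotlib 3.10.9. The fits were tested on simulated counts. DESeq2 1.42.0, library-size scaling, other filters, a replicate block, other control samples and leaving out each sample (55 fits) were alternatives. No samples were duplicates of each other, with a chi-square of at least 2.27 per degree of freedom between samples of a group. Replicate numbers shared by groups were not used to pair the samples in the reported fits. No comparison with 3 pairs had every correlation of same-numbered deviations over 0.1, while the 2 pairs of 501Mel shMITF correlated at 0.131. With 2 samples a group the deviations mirror each other, so 0.131 is a single value, and the crossed pairs gave -0.131. Such correlations cannot exclude pairing, and the labels do not settle it.

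Per-sample values were given for called members with a mean of at least 100 counts in the higher group, up to 6 per direction and comparison by size of change, and for the partner chains COL1A1, COL1A2, COL4A1, COL4A2, COL6A1, COL6A2 and COL6A3. Up to 4 called machinery genes were named per comparison. The members and lists were chosen with earlier results of these data known. Others named were chosen after their values were seen.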

Additional observations from a re-analysis of the deposited data

Results flagged for a closer look

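The effect of BRG1 silencing differed between 501Mel and Hermes 3A, by the test of the difference itself (edgeR's quasi-likelihood test, adjusted over all genes tested), for 12 collagen genes of the kind given per sample. The log2 fold change was higher in 501Mel than in Hermes 3A by 8.21 for COL24A1, 4.90 for COL20A1, 3.19 for COL5A1, 2.15 for COL16A1, 1.91 for COL5A2 and 1.55 for COL11A1. The value for COL24A1 rests on 1, 0 and 3 counts in Hermes 3A shBRG1 and depends on the count added before taking logs, and it was 7.53 without shBRG1 replicate 2 and 9.49 without shBRG1 replicate 3 of Hermes 3A. COL20A1 had 0, 12 and 4 counts in Hermes 3A shSCR and 8, 2 and 2 in shBRG1, and its difference was 3.41 without shSCR replicate 2 and 5.87 without shBRG1 replicate 1 of that line. COL5A1 had 5, 0 and 6 counts in Hermes 3A shSCR and 8, 1 and 8 in shBRG1, and its difference was 2.55 without shBRG1 replicate 2 of that line. COL11A1 had 9, 5 and 2 counts in 501Mel shSCR1 and 20, 24 and 25 in shBRG1. The difference was -3.13 for COL18A1, -3.08 for COL23A1, -3.04 for COL6A3, -2.47 for COL6A1, -2.18 for COL19A1 and -1.91 for COL9A2. The 501Mel side of these tests used shSCR1 only, and COL18A1 and COL6A3 in 501Mel shBRG1 overlapped shSCR2. COL23A1 had 20, 13 and 15 counts in Hermes 3A shSCR and 263, 283 and 253 in shBRG1, but a low count in 501Mel shSCR1, and its difference was 0.51 without shSCR1 replicate 2 and -3.98 without shBRG1 replicate 2 of 501Mel.

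The effect of MITF silencing differed between the lines for COL12A1, by -3.55, lower in 501Mel. COL12A1 was 2.88 higher in shSCR2 than in shSCR1 on the log2 scale, and its shMITF levels of 0.137 and 0.0124 RPKM lay on both sides of the shSCR1 levels of 0.0624, 0.0438 and 0.0549. Its difference was -6.06 without 501Mel shMITF replicate 1 and -2.65 without replicate 2. The call was lost without either 501Mel shSCR2 sample or any 1 Hermes 3A shSCR sample.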

How the results depend on the processing

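Counts of collagen genes called kept within 1.5 times the reported value in 74 of 96 alternatives that used every sample. With at least 10 counts required in every sample, fewer genes were tested, and 10 rose and 6 fell in 501Mel shBRG1, 3 rose in 501Mel shMITF, 1 fell in Hermes 3A shBRG1, 3 rose in Hermes 3A shMITF, 7 were lower in 501Mel shSCR1 than in Hermes 3A shSCR, and the difference of the shBRG1 effect was called higher for 5 and lower for 7 and that of the shMITF effect lower for 0. With library sizes, 6 fell in 501Mel shBRG1 and 1 in Hermes 3A shMITF. DESeq2 called 2 lower in 501Mel shMITF and 2 higher and 2 lower for the difference of the shMITF effect. With no filter 4 fell in 501Mel shMITF, 4 fell in Hermes 3A shBRG1 and the shMITF difference was higher for 1. The replicate block treats samples of the same number as matched. It gave 3 lower in 501Mel shMITF and 1 higher and 0 lower for the shMITF difference. Same-numbered deviations correlated at 0.131 in the 2 pairs of 501Mel shMITF, which is a single value because the deviations mirror each other. With all 501Mel groups in one fit, 4 fell in 501Mel shMITF, and with pooled scramble groups 1 rose.

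Named genes changed sign in 9 of 641 such values. With pooled scramble groups in 501Mel shMITF, COL16A1 was -0.58, COL4A2 -0.63 and COL6A1 -0.24. In Hermes 3A shBRG1, COL6A1 was 0.095 with library sizes and 0.00054 with at least 10 counts, and COL6A2 -0.0025 with DESeq2 and -0.00021 with all groups of the line. With shSCR2 in place of shSCR1 against Hermes 3A, COL13A1 was -1.16 and COL6A3 -1.61. The causes were not tested.

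With each sample left out in turn, the count called ranged from 16 to 21 higher and 10 to 10 lower in 501Mel shBRG1, 4 to 6 and 0 to 4 in 501Mel shMITF, 4 to 8 and 2 to 3 in Hermes 3A shBRG1, 2 to 7 and 1 to 3 in Hermes 3A shMITF, 11 to 13 and 14 to 16 between the lines, 14 to 18 and 9 to 13 for the shBRG1 difference, 0 to 3 and 0 to 1 for the shMITF difference, and 4 to 5 and 11 to 16 between scramble groups. In fits that left 1 shSCR2 or shMITF sample of 501Mel, the lone sample is assumed to vary like the others. Signs changed for COL4A1 (-0.75 to 1.02) and COL6A1 (-0.14 to 0.80) in 501Mel shMITF, COL4A1 (-0.013 to 0.054), COL6A1 (-0.053 to 0.028) and COL6A2 (-0.044 to 0.038) in Hermes 3A shBRG1, COL1A1 (-0.25 to 0.48), COL4A1 (-0.085 to 0.70) and COL6A2 (-0.040 to 0.53) in Hermes 3A shMITF, and COL23A1 (-3.98 to 0.51) in the shBRG1 difference.

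Over all genes, library sizes moved the median log2 fold change from 0.05 to 0.40 in 501Mel shBRG1 and from 0.04 to 0.30 between the lines. All genes called in 501Mel shMITF numbered 1592, against 575 with pooled scramble groups and 2518 with all groups in one fit, and in 501Mel shBRG1 8024 against 5183 with at least 10 counts in every sample. Few replicates and a wide spread limit 501Mel shMITF (2 samples a group) and Hermes 3A shMITF, and members under about 20 counts per sample give imprecise folds.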
